A study of Homo sapiens with 414 samples.

Results

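The 36 genes described here are a hand-picked module of the unfolded protein and amino acid responses, and all 36 were rows of the deposited tables, which held 19097 human genes for single cells and 19084 for bulk RNA. They were followed in H1 cells, H9 cells and bulk H1 RNA and fall into 4 groups by role. The ATF4 arm has 14 genes, the sensors and regulators 6, the ER folding arm 9 and the ER-associated degradation genes 7. H1 and H9 are established human embryonic stem cell lines, both kept undifferentiated in E8 medium on Matrigel. There were 92 H1 cells (passages 20 to 30), 91 H9 cells (passages 25 to 35) and 48 bulk H1 libraries (passage 16). Single cells were captured on a microfluidic C1 chip and turned into full-length cDNA with the SMARTer chemistry and Nextera XT indexing, and cells of the same number were read at 24 and at 96 libraries per lane. Values are those at 24 per lane unless stated. Bulk libraries were made from poly-A RNA, fragmented, primed with random hexamers and ligated to adapters (LM-Seq), and 48 shared a lane. No cell or culture was labelled as stressed, treated or starved, and what dissociation and capture did to these genes was not tested.

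A pair of signalling routes meet in this module. When unfolded protein builds up in the endoplasmic reticulum (ER), the sensors PERK (EIF2AK3), IRE1 (ERN1) and ATF6 slow translation and switch on chaperone and degradation genes, the last through ATF6 itself and through XBP1, whose mRNA IRE1 splices. When amino acids run short, uncharged tRNA activates GCN2 (EIF2AK4). Both PERK and GCN2 phosphorylate the initiation factor eIF2, and this slows general translation while favouring that of ATF4, a transcription factor that drives amino acid synthesis, uptake and tRNA charging. The ATF4 arm can therefore be raised with or without ER stress, and the comparison of that arm with the ER folding arm across cells addresses whether both are high in the same cells.

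Promoter windows were searched for the known elements of both responses, and 6 are printed to show these elements in genes that the results return to. RefSeq windows on GRCh38.p14, from 250 bases before to 50 bases after the start, were found for 33 of the 36 genes, and 35114 windows of all genes gave the background. Both strands were searched for the ER stress element ERSE (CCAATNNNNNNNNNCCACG), ERSE-II (ATTGGNCCACG), the unfolded protein response element UPRE (TGACGTGG) and the C/EBP-ATF element CARE (TGATGNAA). ERSE was in 0.0769% of all windows and in those of XBP1, PDIA6, CALR, CANX and CRELD2. ERSE-II was in 0.0541% of all windows and in those of HYOU1, SDF2L1 and HERPUD1. UPRE was in 0.729% of all windows and, of the members, in that of HYOU1, where it overlaps a copy of ERSE-II. CARE was in 3.62% of all windows and in those of CHAC1, ASNS, CEBPG, PPP1R15B and HERPUD1. No window of the ATF4 arm held ERSE, ERSE-II or UPRE, and no window of the ER folding arm held CARE. Members were counted by gene, if any window of theirs matched, whereas the background shares are of windows, so the units differ. A match is a description of letters and not a measured binding site. Capitals mark the matched letters in the windows of CALR (chr19:12938359-12938658, plus strand), PDIA6 (chr2:10812736-10813035, minus strand), HYOU1 (chr11:119057156-119057455, minus strand), HERPUD1 (chr16:56931892-56932191, plus strand), ASNS (chr7:97872359-97872658, minus strand) and CHAC1 (chr15:40953221-40953520, plus strand), each written 5′ to 3′ along the gene.
CALR: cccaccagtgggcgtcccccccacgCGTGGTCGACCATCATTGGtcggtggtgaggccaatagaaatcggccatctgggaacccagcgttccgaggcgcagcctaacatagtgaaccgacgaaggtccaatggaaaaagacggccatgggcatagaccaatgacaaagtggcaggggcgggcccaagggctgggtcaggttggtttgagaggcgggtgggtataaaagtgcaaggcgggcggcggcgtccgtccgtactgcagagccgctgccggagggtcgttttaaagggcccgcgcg
PDIA6: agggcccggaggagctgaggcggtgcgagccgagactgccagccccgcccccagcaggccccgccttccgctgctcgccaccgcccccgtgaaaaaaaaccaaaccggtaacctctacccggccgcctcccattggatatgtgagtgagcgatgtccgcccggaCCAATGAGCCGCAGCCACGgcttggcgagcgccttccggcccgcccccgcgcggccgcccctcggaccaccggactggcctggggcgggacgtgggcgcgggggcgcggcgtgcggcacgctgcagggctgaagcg
HYOU1: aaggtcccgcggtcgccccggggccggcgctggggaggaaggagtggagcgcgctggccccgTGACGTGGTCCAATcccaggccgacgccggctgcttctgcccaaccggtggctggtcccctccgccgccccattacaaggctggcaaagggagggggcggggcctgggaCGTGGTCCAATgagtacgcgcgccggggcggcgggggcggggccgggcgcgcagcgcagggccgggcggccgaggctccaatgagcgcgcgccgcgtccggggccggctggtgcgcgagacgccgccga
HERPUD1: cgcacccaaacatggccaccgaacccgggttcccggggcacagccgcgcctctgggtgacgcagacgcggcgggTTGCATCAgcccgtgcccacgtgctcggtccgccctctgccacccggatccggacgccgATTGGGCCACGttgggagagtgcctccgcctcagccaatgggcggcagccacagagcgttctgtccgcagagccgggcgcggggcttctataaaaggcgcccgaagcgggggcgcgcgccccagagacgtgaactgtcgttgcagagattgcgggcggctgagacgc
ASNS: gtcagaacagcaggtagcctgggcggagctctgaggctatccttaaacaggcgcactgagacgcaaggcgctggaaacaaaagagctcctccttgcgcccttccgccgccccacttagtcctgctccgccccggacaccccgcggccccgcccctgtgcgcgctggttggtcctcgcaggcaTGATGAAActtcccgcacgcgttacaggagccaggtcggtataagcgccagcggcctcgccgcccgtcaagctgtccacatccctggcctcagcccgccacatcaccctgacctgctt
CHAC1: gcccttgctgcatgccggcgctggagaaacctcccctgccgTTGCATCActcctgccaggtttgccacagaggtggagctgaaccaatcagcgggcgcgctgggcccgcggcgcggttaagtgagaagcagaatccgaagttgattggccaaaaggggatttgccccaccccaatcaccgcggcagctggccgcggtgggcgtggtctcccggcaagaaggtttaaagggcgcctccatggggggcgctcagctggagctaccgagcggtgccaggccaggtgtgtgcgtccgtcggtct
In this set CALR and PDIA6 carry ERSE, HYOU1 carries 2 copies of ERSE-II, HERPUD1 carries ERSE-II and CARE, and ASNS and CHAC1 carry CARE.

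Levels are counts per 1000000 human counts (CPM), which carry no correction for transcript length, so levels are compared between groups and never between genes. The median total was 3698611 human counts in H1 cells (1136295 to 8096756), 3863508 in H9 cells (1568326 to 7758948) and 2965023 in bulk (2099639 to 3964675). Each line's cells are 1 sample, since no label tells chips apart within a line, so no p-value was computed and differences were read by their size. The limit was 2-fold, among genes of at least 10 CPM in either group. Line, chip, sequencing run and passage range differ together between H1 and H9 and cannot be told apart. Intervals on summed counts are exact Poisson, those on shares of cells exact binomial (Clopper-Pearson), both at 95%, and they cover counting error only. Nothing in the labels ties bulk libraries to separate cultures, so their SD may be technical. All 5 pluripotency genes checked stood at 10 CPM or more in every group, and 0 of the mesendoderm, neural and trophoblast markers did. Of 6 fibroblast markers, 2 did in each line and 3 in bulk, led by THY1, which stem cells also express, while LUM was at 0 in all groups.

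Some libraries stood apart. In H1, cells 019, 026, 030, 049 and 061 had over 10% spike-in counts, with mitochondrial counts under 1% in some and over 20% in others, and 026 and 061 (28.99% and 32.2% mitochondrial) also resembled each other. In H9, cell 030 had over 10% spike-in counts, cell 028 had under 1% mitochondrial counts, and cells 088, 094, 095 and 096 resembled each other, with gene-centred correlations of up to 0.640 where the other cells reached 0.135. In bulk, a single library had the lowest median correlation with the other 47, 0.961, against 0.980 for the next. The ratios, the arm and pair correlations, the spread, the detection counts and the genes most like each arm were recomputed without these libraries, and the top cells, the library measures and the other pathway genes against the scores were not. Of the members, 14 overlap an exon of a gene on the other strand in GENCODE 29, among them DDIT3 (with MARS and MBD6), CRELD2 (with ALG12), PDIA3 (with ELL3) and DERL2 (with MIS12). ASNS, ATF4, PDIA3, XBP1 and XPOT have processed copies in the genome that are not rows of the tables. Whether counting used strand is not given in the sources used here, so reads of such neighbours cannot be told apart.

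Of the 36 genes, 27 reached 10 CPM in the summed H1 cells, 24 in the summed H9 cells and 27 in bulk. The module held 0.341% of human counts in H1 cells, 0.332% in H9 cells and 0.907% in bulk H1. A rounded count of at least 1 was seen in every cell for 18 members in H1 and for 13 in H9. The ATF4 arm was the more uneven of the arms in detection. Its genes CHAC1, TRIB3 and VLDLR were among those read in part of the cells, while ATF4, ASNS, CBS and XPOT were read in all. ER folding genes other than MANF, CRELD2 and SDF2L1 were also read in all cells.

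Among transcription factors of the ATF4 arm, ATF4 itself was read in all cells. Its level was 4.36 CPM in the lowest, 166 in the median and 525 in the highest H1 cell, against 12.1, 131 and 337 CPM in H9 cells and 225, 325 and 367 CPM in bulk libraries. DDIT3, which encodes the stress factor CHOP, had a median of 2.61 CPM and a highest value of 128 CPM over H1 cells, against 0.975 and 89.6 CPM over H9 cells, and 0.990 to 7.57 CPM over bulk libraries. DDIT3 was thus spread over a far wider range among cells than among bulk libraries, with reads in 63 of 92 H1 cells and 67 of 91 H9 cells. CEBPG, a dimer partner of ATF4, ranged from 0 to 168 CPM (median 20.6) in H1 cells, from 0 to 286.1 CPM (median 24.4) in H9 cells and from 98.8 to 144 CPM in bulk. CEBPB, a related factor, was nearly silent at 0.744 CPM in summed H1 cells and 0.763 CPM in summed H9 cells, with 5.76 ± 1.95 CPM in bulk (SD, n = 48).

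The stress effectors CHAC1 and TRIB3 were uneven between cells, with CHAC1 reads in 73 of 92 H1 and 55 of 91 H9 cells and TRIB3 reads in 57 and 52. Set against genes of like level, CHAC1 and DDIT3 in H1 and TRIB3 in H9 were less than 2-fold more variable. CHAC1 and DDIT3 in H9 and TRIB3 in H1 were under the minimum for that comparison. CHAC1, an enzyme that breaks down glutathione, had a median of 5.57 CPM and a highest value of 173 CPM in H1 cells, against 0.489 and 69.4 CPM in H9 cells. TRIB3, a pseudokinase that feeds back on the response, had medians of 0.331 and 0.228 CPM and highest values of 141 and 139 CPM in H1 and H9 cells. For TRIB3, 4 H1 cells and 6 H9 cells held 50% of the CPM summed over cells, so a few cells carried the line's level. Over bulk libraries CHAC1 ranged from 3.34 to 11.1 CPM and TRIB3 from 1.02 to 5.37 CPM. PPP1R15A, the GADD34 subunit that brings a phosphatase to eIF2, was at 2.79 CPM in summed H1 cells, 1.38 CPM in summed H9 cells and 50.002 ± 5.43 CPM in bulk. SESN2, a leucine sensor, was read in 44 H1 cells and 25 H9 cells, and NUPR1, a stress-induced chromatin protein, in 5 and 6 cells, with reads in 18 of 48 bulk libraries.

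The metabolic targets ASNS and CBS and the tRNA exporter XPOT were read in all cells. ASNS, asparagine synthetase, had 5.90, 263.4 and 765 CPM in the lowest, median and highest H1 cell, against 2.08, 182 and 539 CPM in H9 cells and 95.9, 115 and 143 CPM in bulk. The H1 cells reached higher than the H9 cells and overlapped them below that, while the bulk range lay below the medians of both lines. CBS and CTH catalyse the successive steps that turn homocysteine into cysteine. CBS had medians of 174 CPM in H1 cells and 170.25 CPM in H9 cells, and CTH 32.7 and 17.9 CPM, with CTH reads in 92 of 92 H1 cells and 82 of 91 H9 cells. XPOT, the exporter of tRNA from the nucleus, had medians of 117 and 109 CPM in H1 and H9 cells and 584 CPM in bulk. VLDLR, a lipoprotein receptor gene that ATF4 drives under ER stress, had a median of 2.49 CPM and a highest value of 116 CPM in H1 cells, against 0 and 207 CPM in H9 cells.

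**Figure D1:**
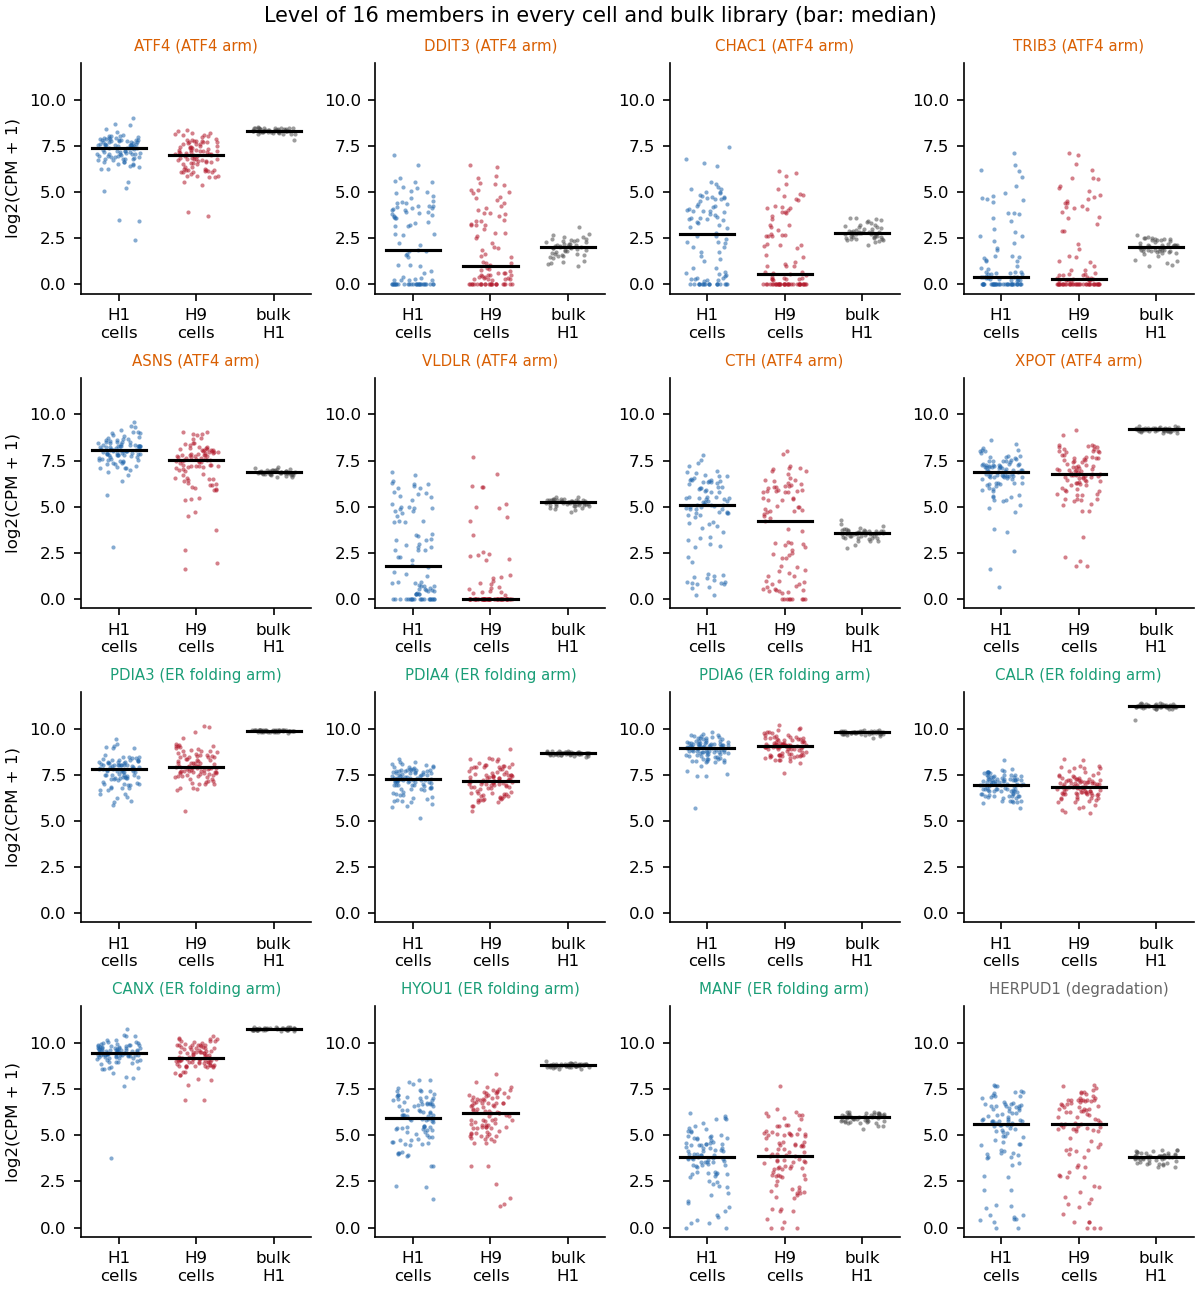
Level of 16 members as log2(CPM + 1), 1 point per H1 cell (blue, n = 92), H9 cell (red, n = 91) and bulk H1 library (grey, n = 48), with the median as a bar. DDIT3, CHAC1, TRIB3 and VLDLR spread from 0 to high values over cells, the PDIA genes, CALR and CANX are above 0 in every cell, and CALR lies higher in all 48 bulk libraries than in any cell.

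The sensors were low or moderate. EIF2AK4, the amino acid sensor GCN2, had 7.54, 66.8 and 260.5 CPM in the lowest, median and highest H1 cell, against 5.13, 64.5 and 278.6 CPM in H9 cells and 120, 139.97 and 189 CPM in bulk. EIF2AK3, the ER sensor PERK, was read in 69 of 92 H1 cells and 61 of 91 H9 cells, at 9.08 and 8.61 CPM in the sums. ERN1, the sensor IRE1, was read in 8 H1 cells and 5 H9 cells, at 0.103 and 0.297 CPM, and at 0.650 ± 0.386 CPM in bulk. A single H9 cell held 73.1% of the H9 level, so the lines cannot be ranked for ERN1. ATF6 had medians of 53.7 and 23.6 CPM in H1 and H9 cells, and 19.1 CPM in bulk. XBP1, the factor whose mRNA IRE1 splices, had medians of 58.2 CPM in H1 cells, 44.1 CPM in H9 cells and 63.3 CPM in bulk. PPP1R15B, the constitutive counterpart of GADD34, had medians of 108 CPM in H1 cells, 74.2 CPM in H9 cells and 60.2 CPM in bulk.

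PDIA3, PDIA4, PDIA6, CALR, CANX and HYOU1 of the ER folding arm were read in every cell of both lines. PDIA4, a disulfide isomerase, had 35.5, 154 and 331 CPM in the lowest, median and highest H1 cell, against 45.2, 143 and 479 CPM in H9 cells and 360.1, 410.04 and 448 CPM in bulk. CALR, a lectin chaperone of the ER lumen, had 51.9, 124 and 321 CPM in H1 cells, against 41.8, 116 and 331 CPM in H9 cells and 1453, 2395 and 2691 CPM in bulk. For CALR the highest single cell of either line was far below the lowest bulk library. CANX, its membrane-bound relative, had medians of 708 CPM in H1 cells, 584 CPM in H9 cells and 1755 CPM in bulk. PDIA3, the isomerase that works with both lectins, had medians of 221 CPM in H1 cells and 246 CPM in H9 cells, and its highest H1 cell (711 CPM) lay below its lowest bulk library (891 CPM). PDIA6, a further isomerase, had medians of 497 and 540.1 CPM in H1 and H9 cells and 896 CPM in bulk. HYOU1, a nucleotide exchange factor for the chaperone BiP, had medians of 60.5 and 74.4 CPM in H1 and H9 cells and 448 CPM in bulk. MANF, a secreted stress-induced protein, was read in 90 of 92 H1 cells and 88 of 91 H9 cells, at 18.2 and 23.1 CPM in the sums. The 2 other small stress-induced genes stayed under the minimum in both lines. CRELD2 was at 4.94 CPM in H1, 7.66 CPM in H9 and 15.4 ± 2.61 CPM in bulk, and SDF2L1, part of a chaperone complex, at 5.35, 6.99 and 9.77 ± 2.39 CPM.

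The degradation genes were moderate or low. HERPUD1, a stress-induced scaffold of the degradation complex, had medians of 48.5 and 48.0 CPM and highest values of 215 and 213 CPM in H1 and H9 cells, and 8.79 to 17.3 CPM in bulk. SEL1L, the adaptor of the ubiquitin ligase, had medians of 50.9 and 38.6 CPM in H1 and H9 cells. SYVN1, the ligase itself, was at 4.57 CPM in H1, 2.12 CPM in H9 and 11.999 ± 2.33 CPM in bulk. EDEM1 and EDEM2, which trim mannose from misfolded glycoproteins, were read in 92 and 68 of the H1 cells, against 88 and 66 of the H9 cells. The derlin genes, which encode channel proteins, were read in 92 (DERL1) and 91 (DERL2) H1 cells, against 87 and 91 H9 cells.

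Between the lines the module differed little, with the ATF4 arm leaning towards H1, in part through genes that passed the minimum in H1 only. VLDLR had 16.6 CPM in H1 (interval 16.1 to 17.0) and 7.51 CPM in H9 (interval 7.23 to 7.80). It was 2.20-fold higher in H1, a log2 ratio of 1.14, and the only member of 27 past the minimum that differed 2-fold. VLDLR passed the minimum through H1 alone, so it could be called only in that direction. Over all 8851 genes past the minimum, 1.83% were 2-fold higher in H1 and 2.23% were 2-fold higher in H9, so 1 of 27 in H1 and 0 of 27 in H9 lie close to the background. VLDLR reads were found in 71 of 92 H1 cells (77.2%, 67.2 to 85.3), against 31 of 91 H9 cells (34.1%, 24.5 to 44.8), and at 96 per lane in 56 and 24 cells. A single H9 cell held 30.0% of the H9 level of VLDLR, and without the highest cell of each line the log2 ratio was 1.501.

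In the ATF4 arm 8 of the 10 genes past the minimum were higher in H1, against 4610 of all 8851, with a median log2 ratio of 0.19 against 0.02 over all genes. Of the 8, VLDLR, CHAC1 and TRIB3 reached 10 CPM in H1 only, so the minimum allowed them only this direction. No gene of the arm reached it in H9 only. TRIB3, one of the 8 at 0.20, was at -0.20 without the cells that stood apart, -0.16 without its highest cell in each line and -0.44 as the mean CPM per cell. CHAC1 followed with 14.8 CPM in H1 (interval 14.4 to 15.2) and 8.09 CPM in H9 (interval 7.80 to 8.39). Its log2 ratio was 0.88, which passed 2-fold (1.07) without the cells that stood apart. ASNS was at 295.1 CPM in H1 against 189 CPM in H9 (0.64), ATF4 at 169 and 142 CPM (0.25), and CEBPG and XPOT were the 2 genes lower in H1 (-0.19 and -0.20). Further genes of the amino acid route were mostly higher in H1 too. These lists were chosen with earlier results of these data known, so they are not an independent check. Of 30 further ATF4 targets, 22 passed the minimum, 19 were higher in H1 and 4 were 2-fold higher there, against 1.83% of all genes, with a median of 0.36. They were STC2, a secreted stress-induced glycoprotein (13.2 CPM in H1 against 3.05 in H9, 2.12), the amino acid transporter genes SLC7A5 (28.1 in H1 against 10.9 in H9, 1.36) and SLC7A3 (185 in H1 against 83.4 in H9, 1.15), and PSPH, the last enzyme of serine synthesis (144 in H1 against 64.2 in H9, 1.16). STC2 reached the minimum in H1 only. The 10 aminoacyl-tRNA synthetases of the response had a median of 0.10, with 8 higher in H1 and 0 past 2-fold, led by AARS with 182 CPM in H1 against 133 in H9 (0.45).

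In the ER folding arm 3 of the 7 genes past the minimum were higher in H1 and 4 in H9, with a median of -0.10. PDIA3 was at 222 CPM in H1 against 291.6 CPM in H9 (-0.40) and MANF at 18.2 and 23.1 CPM (-0.35), while CALR (0.01), PDIA4 (0.06) and CANX (0.12) differed little and CALR and PDIA4 changed sign between scalings. The 34 further ER folding and translocation genes past the minimum had a median of 0.02, with 20 higher in H1, 14 higher in H9 and 0 past 2-fold. Of the degradation genes 4 of 6 were higher in H9, with a median of -0.24, from DERL2 at 66.8 CPM in H1 against 88.6 CPM in H9 (-0.41) to SEL1L at 74.9 and 67.02 CPM (0.16). EDEM2, one of the 4 at -0.37, was at 0.04 without the cells that stood apart. Of 12 further degradation genes and regulators past the minimum, 8 were higher in H9 and 0 were past 2-fold, with a median of -0.10, led by OS9, a lectin that delivers glycoproteins to the ligase (13.2 CPM in H1 against 24.5 in H9, -0.89). Among the sensors ATF6 stood out with 67.9 CPM in H1 (interval 67.1 to 68.8) and 41.5 CPM in H9 (interval 40.8 to 42.2), or 0.71, while XBP1 (0.18), PPP1R15B (0.25) and EIF2AK4 (-0.12) differed by less. Below the minimum, SYVN1 (1.11) and PPP1R15A (1.02) were higher in H1 and CRELD2 (-0.63) in H9. At 96 per lane every member kept the sign of its ratio except TRIB3 (0.20 at 24 per lane, 0.00 at 96) and CEBPB (-0.04 and 0.37). No replicate chip shows how far such ratios differ between 2 preparations of 1 line.

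**Figure D2:**
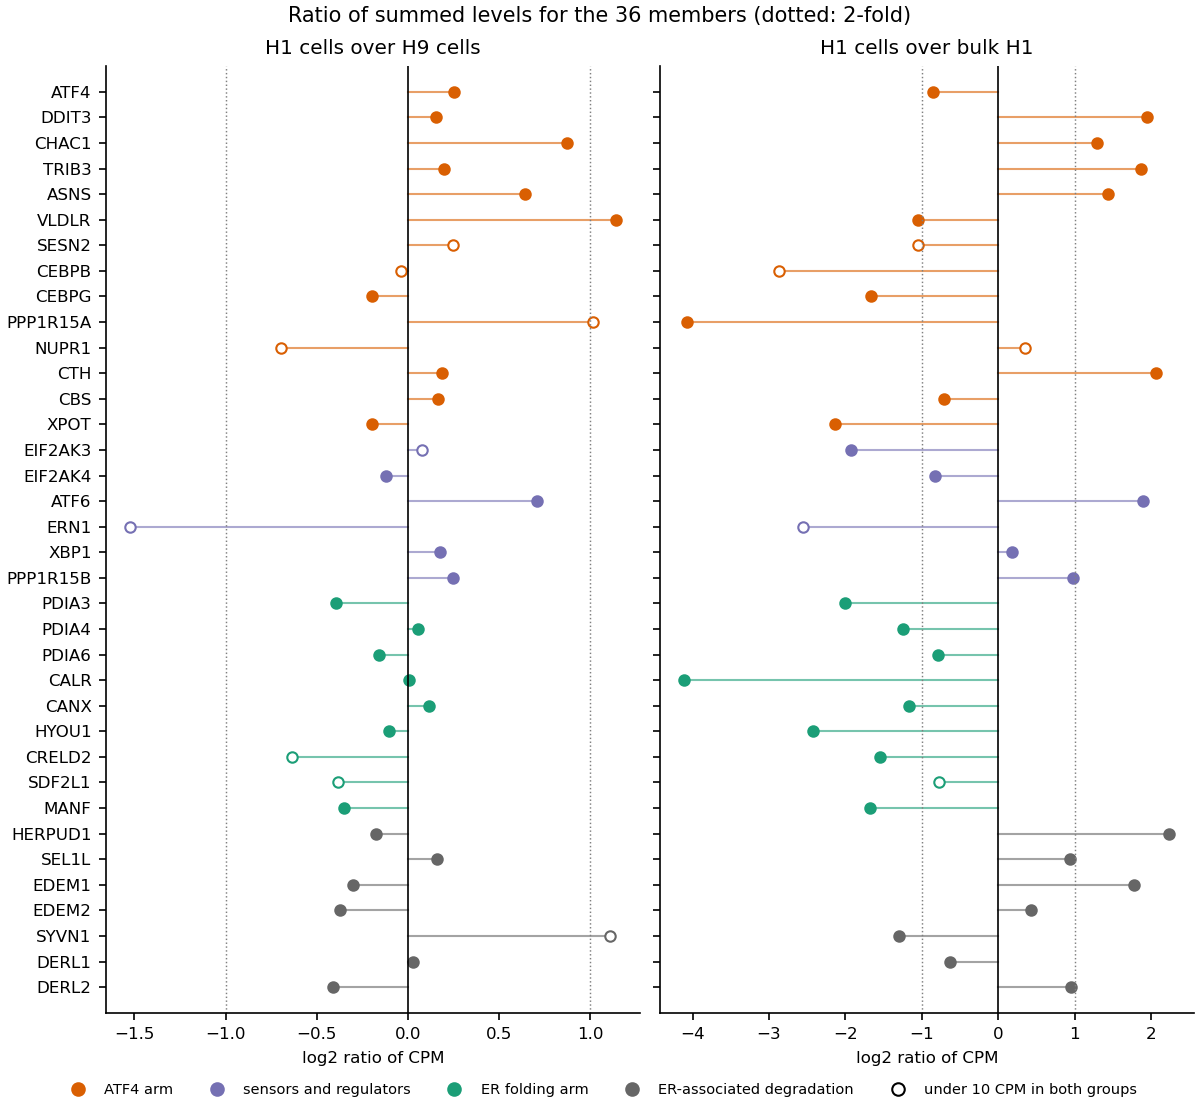
Log2 ratio of CPM for each of the 36 members, H1 cells over H9 cells (left) and H1 cells over bulk H1 (right), coloured by role, with open points for genes under 10 CPM in both groups and dotted lines at 2-fold. On the left VLDLR at 1.14 is the filled point beyond 2-fold, and on the right all 9 ER folding genes lie below 0, down to CALR at -4.11.

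Against bulk H1, all 9 ER folding genes were lower in the cells with no correction for base composition, whereas the ATF4 arm and the degradation genes were split. The comparison used totals without mitochondrially encoded genes, since the bulk table holds none. Chemistry, chip, passage and the step of isolating cells differ together between these groups and cannot be told apart, and in bulk RNA a lower share of expressing cells and less RNA per cell cannot be told apart either. Over all 9647 genes past the minimum, 30.1% were 2-fold higher in cells and 21.5% were 2-fold higher in bulk, with a median log2 ratio of 0.24, which other scalings moved to 0.05 (TMM factors) and -0.01 (median-of-ratios size factors). Of the 31 members past the minimum, 8 were 2-fold higher in cells and 13 in bulk.

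Of the 8 ER folding genes past the minimum, 7 were 2-fold lower in cells, against 21.5% of all genes. CRELD2, one of the 7, reached the minimum in bulk only. The median log2 ratio was -1.61. CALR was at 138 CPM in summed H1 cells, against 2383 ± 190 CPM in bulk (SD, n = 48), which is 17.3-fold lower in cells. HYOU1 (-2.43), PDIA3 (-2.01), MANF (-1.68), CRELD2 (-1.55), PDIA4 (-1.25) and CANX (-1.17) followed, and PDIA6 was at -0.79. The further ER folding and translocation genes did not share this direction, with 10 of 34 being 2-fold higher in cells and 7 in bulk, shares near those of all genes, from SEC61A1, the main subunit of the translocation channel (47.6 CPM in cells, 293.2 ± 15.9 in bulk, -2.62), to SSR4 (72.2 CPM in cells, 12.2 ± 2.23 in bulk, 2.56) and SEC61B (106 CPM in cells, 20.6 ± 3.40 in bulk, 2.37). Of 14 further degradation genes and regulators, 1 was 2-fold higher in cells and 2 in bulk, against 30.1% and 21.5% of all genes. Their median was -0.53, and OS9 was at 14.03 CPM in cells against 195.7 ± 22.9 in bulk (-3.80).

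In the ATF4 arm, CTH (45.1 CPM in cells, 10.8 ± 2.16 in bulk, 2.07), DDIT3 (12.05 CPM in cells, 3.13 ± 1.30 in bulk, 1.95), TRIB3 (11.6 CPM in cells, 3.15 ± 1.07 in bulk, 1.88), ASNS (1.44) and CHAC1 (1.29) were 2-fold higher in cells. PPP1R15A (2.97 CPM in cells, 50.002 ± 5.43 in bulk, -4.07), XPOT (132 CPM in cells, 581 ± 34.7 in bulk, -2.14), CEBPG (-1.67) and VLDLR (-1.04, and -0.99 without the cells that stood apart) were 2-fold lower. DDIT3, TRIB3 and CHAC1 reached the minimum in cells only and PPP1R15A in bulk only, so the minimum allowed each of them only its own direction. The arm's median was -0.71 over 11 genes. The 25 further ATF4 targets past the minimum were split too, 8 being 2-fold higher in cells and 8 in bulk (median 0.14). Of 10 synthetases 3 were 2-fold higher in cells and 0 in bulk (median 0.44). The shares over all genes, to be set beside each count of this paragraph, were 30.1% in cells and 21.5% in bulk. Degradation genes had a median of 0.94, with HERPUD1 (62.3 CPM in cells, 13.2 ± 2.26 in bulk, 2.24) and EDEM1 (1.78) 2-fold higher in cells and SYVN1 (-1.30) 2-fold lower. ATF6 was at 72.3 CPM in cells and 19.4 ± 3.34 in bulk (1.89), and EIF2AK3 at 9.66 and 36.7 ± 4.24 CPM (-1.92). SYVN1 and EIF2AK3 reached the minimum in bulk only. The ratio moved with base composition over all genes, with a median of 0.71 in the tenth of genes of lowest transcript GC and -1.15 in the tenth of highest, for the 91.8% of genes with a GC value. With that trend removed, the ER folding arm stayed at -1.32 and CALR at -3.84, while PDIA4 (-0.99), CRELD2 (-0.72) and SYVN1 (-0.78) came within 2-fold, SDF2L1, under the minimum, turned from -0.78 to 0.92 and the ATF4 arm's median turned to 0.14. TRIB3 then stood at 3.17 and CHAC1 at 2.55. The bulk library that stood apart was the lowest of 48 for ATF4, PPP1R15A, PDIA6, CALR (1453 CPM) and HYOU1 and the highest for 9 members, and leaving it out left the counts of 8 and 13 as they were.

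Cell-to-cell spread was set against genes of like level, as the log2 ratio of a gene's squared coefficient of variation of CPM to that typical of genes at about its own mean CPM. In H1, 0 of 26 members were 2-fold above that level, against 9.33% of all genes, and in H9 0 of 24, against 5.6%. The ATF4 arm lay somewhat above genes of like level, with medians of 0.12 in H1 (9 genes) and 0.46 in H9 (7 genes), and the ER folding arm below, with -0.30 in each line. DDIT3, CHAC1 and VLDLR entered only in H1 and TRIB3 only in H9, so the ATF4 arm medians rest on different genes. CALR was the steadiest member in both lines, at -1.40 in H1 and -1.13 in H9, and ATF6 in H1 (0.92) and TRIB3 in H9 (0.90) were the most variable. PDIA3 was at 0.13 in H1 and 0.82 in H9, and it passed 2-fold in H9 without the cells that stood apart. At 96 per lane ATF6 and XBP1 passed it in H1. The highest H1 values of both genes at 24 per lane were in cells that stood apart. They were 568 CPM of ATF6 in cell 049 and 555 CPM of XBP1 in cell 026.

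To ask whether the arms rise in the same cells, each arm was scored in each cell as the mean z-score of log2(CPM + 1) over its members at 10 CPM or more in that group. In H1 cells the ATF4 arm score (10 genes) and the ER folding arm score (7 genes) had Pearson's r of 0.01 and Spearman's rho of 0.10 over 92 cells, and 0.12 and 0.14 without the 2 cells farthest from the median ATF4 arm score. In H9 cells (7 genes in each arm) r was -0.22 and rho -0.24 over 91 cells, and -0.20 and -0.22 without 2 cells. On the CPM scale the scores were thus close to unrelated in H1 and weakly opposed in H9, and scaling to spike-in RNA made both positive. Pairs within the ATF4 arm had a median rho of 0.06 in H1 and 0.08 in H9, against 0.03 and 0.01 over all pairs. With genes so loosely related in the score, a low rho between scores cannot show whether the responses rise in different cells. In bulk H1 (8 genes in each arm), r was 0.46 and rho 0.49 over 48 libraries, and 0.41 and 0.43 without 2 libraries. The scores rest on different genes in each group. Against H1 cells, the ATF4 arm score lacks CHAC1, TRIB3 and VLDLR in H9. In bulk it lacks DDIT3, CHAC1 and TRIB3 and adds PPP1R15A, and the ER folding score adds CRELD2. Without the cells that stood apart rho was 0.06 in H1 and -0.23 in H9, and without the bulk library that stood apart it was 0.44. These are descriptions: cells of a line share a preparation as far as the labels tell, both scores of a cell share its total, and no p is given.

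**Figure D3:**
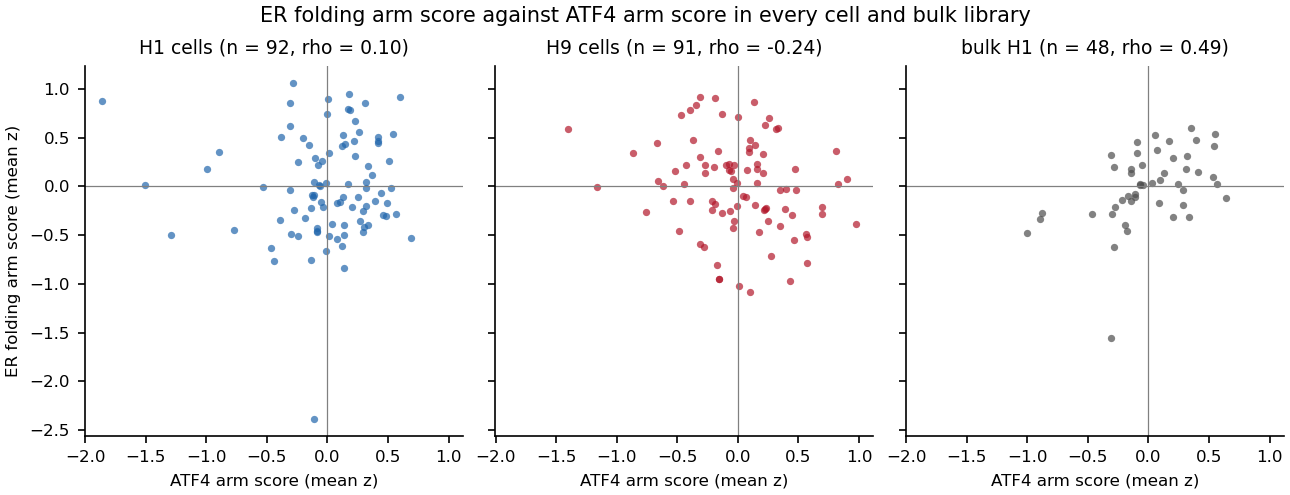
ER folding arm score against ATF4 arm score (mean z of log2(CPM + 1)) in each H1 cell, H9 cell and bulk H1 library, with the number of libraries and Spearman's rho above each panel. The H1 cloud has little slope (rho 0.10), the H9 cloud leans down (rho -0.24) and the bulk cloud leans up (rho 0.49). The genes in the scores differ between the groups.

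The cells at the top of each score restate the same scores and are no separate evidence. The member levels given for these cells are part of the scores that ranked them. Of the 23 H1 cells with the highest ATF4 arm scores, 6 (26.1%) were among the 23 with the highest ER folding scores, where an even spread would give 25%. In H9 this held for 4 of 22 (18.2%, even spread 24.2%), and in bulk for 5 of 12 libraries (41.7%, even spread 25%). Among H1 cells, 079 had the highest ATF4 arm score and ranked 84 of 92 for ER folding, with 631 CPM of ASNS, 272.6 of ATF4, 262.4 of XPOT and 70.7 of TRIB3 but no read of DDIT3. Cell 009 had the highest ER folding score and ranked 77 for the ATF4 arm, with the highest PDIA3 of the line (711 CPM), 773 CPM of PDIA6 and 50.5 CPM of MANF. Cell 015 ranked 2 for the ATF4 arm and 3 for ER folding, and cell 002 ranked 2 for ER folding and 33 for the ATF4 arm. In H9, cell 047 ranked 1 for the ATF4 arm and 74 of 91 for ER folding, and cell 016 ranked 1 for ER folding and 72 for the ATF4 arm. Other top cells of H9 lay mid-range in the other arm, with 002 and 050 (ATF4 arm) at 40 and 46 and 058 (ER folding) at 36. At the low end, H1 cells 026, 061 and 049, all among those that stood apart, held the 3 lowest ATF4 arm scores, and 026 ranked 5 for ER folding, while 030 had the lowest ER folding score.

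Library measures moved with the scores too. The ER folding score had rho of 0.43 in H1 and 0.18 in H9 with the mitochondrial share of the cell, whereas the ATF4 arm score had -0.17 and -0.31. Genes read had rho of 0.27 with the ATF4 arm score in each line, and the spike-in share -0.37 in H1 and -0.31 in H9. In bulk, genes read had rho of 0.40 with the ATF4 arm and 0.52 with the ER folding arm, and total count 0.30 and 0.48. With ranks taken as residuals after genes read and total count, the arms had rho of -0.02 (H1), -0.18 (H9) and 0.36 (bulk), and after the mitochondrial share as well 0.10 in H1 and -0.11 in H9. The scaling set the value in H1: median-of-ratios size factors gave -0.12, and scaling to spike-in RNA gave 0.64 in H1 and 0.48 in H9, where both scores also carry the cell's total of human counts over spike-in. What these measures contribute to the scores was not tested.

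Within the arms, the ER folding genes moved together more than the ATF4 genes did in H1. The sets differ in detection, however. DDIT3, CHAC1, TRIB3 and VLDLR of the ATF4 arm were read in 63, 73, 57 and 71 of 92 H1 cells. Every scored ER folding gene but MANF (90 cells) was read in all of them. Pairs were not matched for counts, and what low counts contribute to the difference was not tested. The median rho over pairs of members was 0.06 (45 pairs) within the ATF4 arm, 0.16 (21 pairs) within the ER folding arm and 0.01 (70 pairs) between them in H1, against 0.03 over all pairs of genes at 10 CPM or more. In H9 these were 0.08 (21 pairs), 0.07 (21 pairs) and -0.02 (49 pairs), against 0.01 over all pairs. In bulk they were 0.02, -0.01 and 0.09, against 0.02 over all pairs, and single pairs lay far to both sides. ATF4 with PDIA4 (0.60), CBS with MANF (0.59) and XPOT with PDIA6 (0.55) were positive, and ASNS with CALR (-0.69) and XPOT with HYOU1 (-0.67) negative.

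The highest pairs of the ER folding arm were among its isomerases and lectins. In H1, PDIA6 with CANX reached 0.39, PDIA4 with CALR 0.38, PDIA3 with PDIA6 0.33 and PDIA4 with PDIA6 0.33. In H9 the same pairs stood at 0.21, 0.25, 0.27 and 0.23. With the score of the other ER folding genes, HYOU1 had rho of 0.14 in H1 and 0.01 in H9, MANF 0.05 and 0.15, CANX 0.25 and 0.11, and PDIA4 0.51 and 0.28. With the own gene left out of the score, 0 of 10 ATF4 arm genes in H1 and 0 of 7 in H9 reached a rho of 0.3 with their arm, against 1.47% and 0.902% of all genes outside the score. Of the 7 ER folding genes, PDIA3, PDIA4, PDIA6 and CALR did in H1 and PDIA3 did in H9, against 3.29% and 0.332% of all genes. No ATF4 arm gene exceeded 0.20 in H1 (XPOT) or 0.25 in H9 (CTH), and CBS was at -0.15 in H1. Here too the arms were not matched for counts.

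All pairs of the 24 members at 10 CPM or more in both lines were ranked by the lower rho of the lines. The ER folding arm, which supplies 21 of these pairs, held 5 of the first 7 and 5 of the first 10. The cut at 7 falls directly after the last of these 5. Places 8 to 10 were DDIT3 with CEBPG, CTH and EDEM2. Place 1 was DDIT3 with HERPUD1 (0.34 in H1, 0.27 in H9, and 0.25 and 0.19 at 96 per lane). Place 4 was XBP1 with PDIA3 (0.23 and 0.28). The pairs at places 1 and 4 were picked out after the values were seen. HERPUD1 carries both ERSE-II and CARE in its promoter window, and over cells it had rho of 0.19 in H1 and 0.23 in H9 with the ATF4 arm score, against 0.05 in each line with the ER folding score. Of the other members with CARE, PPP1R15B had -0.08 in H1 and -0.11 in H9 with the ATF4 arm score. With the own gene left out, CEBPG had 0.13 and -0.01, ASNS 0.15 and 0.18, and CHAC1 0.17 in H1. Some members outside the arm with no CARE match came near HERPUD1 in a single line. They were DERL2 (0.20 in H1, 0.10 in H9), ATF6 (0.18, 0.13) and EIF2AK4 (-0.001, 0.23), and the others were lower. The ATF4 arm score also holds DDIT3, whose pair with HERPUD1 ranked first. Whether ERSE-II and CARE bear on the correlations was not tested. XBP1 had 0.11 and -0.13 with the ATF4 arm, against 0.29 and 0.22 with ER folding. The degradation score had rho of 0.06 (H1) and 0.32 (H9) with the ATF4 arm and 0.22 (H1) and -0.12 (H9) with ER folding. At the other end, ATF4 with PDIA3 was negative in both lines (-0.21 and -0.24), and in H9 DDIT3 with PDIA6 reached -0.37 and CTH with CALR -0.35, values that were 0.07 and 0.03 in H1.

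**Figure D4:**
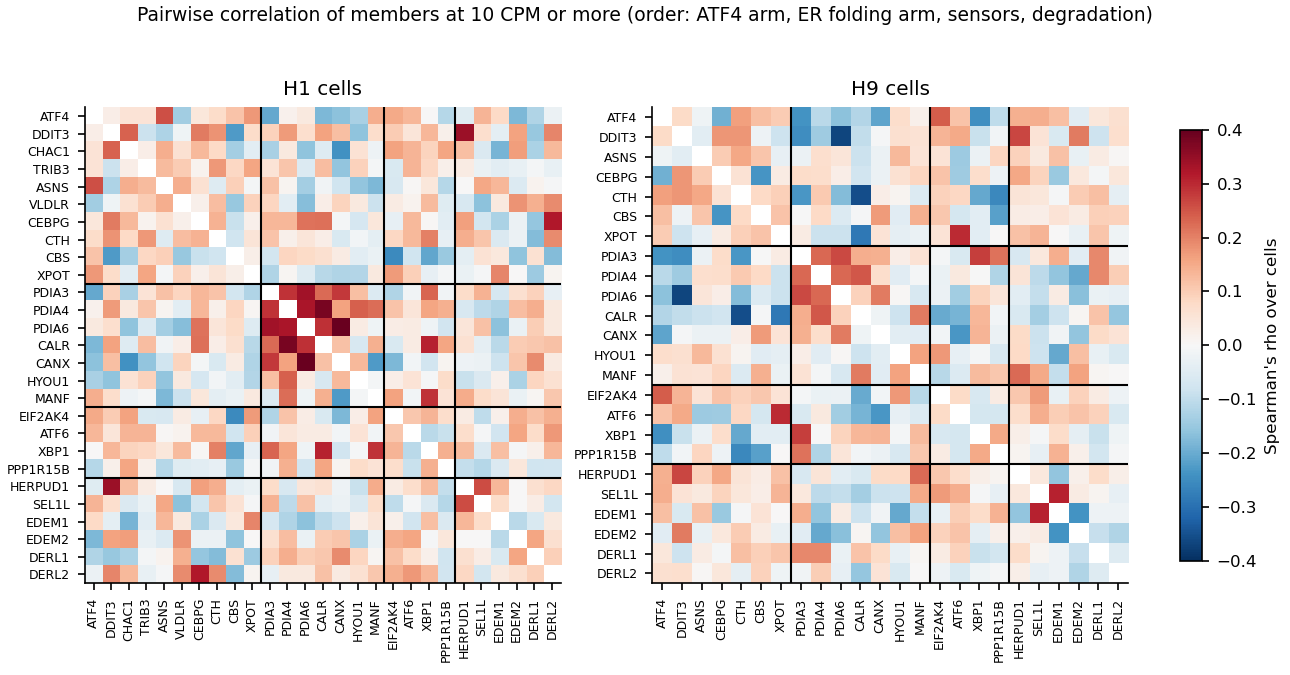
Spearman's rho over cells for each pair of members at 10 CPM or more, in H1 cells (left) and H9 cells (right), with lines between the ATF4 arm, the ER folding arm, the sensors and the degradation genes. A red block of PDIA3, PDIA4, PDIA6, CALR and CANX stands in the ER folding square of H1 and more faintly of H9, and the ATF4 square has no such block.

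Genes of the same pathways outside the 36 were set against both scores. Of 32 further ER folding and translocation genes, 3 reached 0.3 with the ER folding score in H1, against 3.29% of all genes. They were HSPA5, encoding the chaperone BiP (0.48), HSP90B1, encoding GRP94 (0.38), and the isomerase subunit gene P4HB (0.34). Of 34 in H9, HSP90B1 (0.44), HSPA5 (0.43) and DNAJC3, an inhibitor of PERK (0.30), did, against 0.332% of all genes. With the ATF4 arm score HSPA5 was at -0.11 and -0.19 and HSP90B1 at -0.23 and -0.31 in H1 and H9. Of 20 further ATF4 targets, PSAT1 (0.40) reached 0.3 with the ATF4 arm score in H1, and PHGDH (0.30) and MTHFD2 (0.33) in H9, against 1.47% of all genes in H1 and 0.902% in H9. Their rho with the ER folding score lay between -0.19 and -0.05 in both lines. Among 10 tRNA synthetases, GARS (0.32) reached 0.3 in H1 and 0 did in H9, and 0 of the further degradation genes reached it with either score. The medians of these lists were low, at 0.12 in H1 and 0.15 in H9 for the ATF4 targets with the ATF4 arm score, and at 0.11 and 0.09 for the ER folding genes with the ER folding score, against 0.07 (H1) and 0.03 (H9) for all genes with the ATF4 arm score and 0.03 (H1) and -0.0034 (H9) with the ER folding score.

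**Figure D5:**
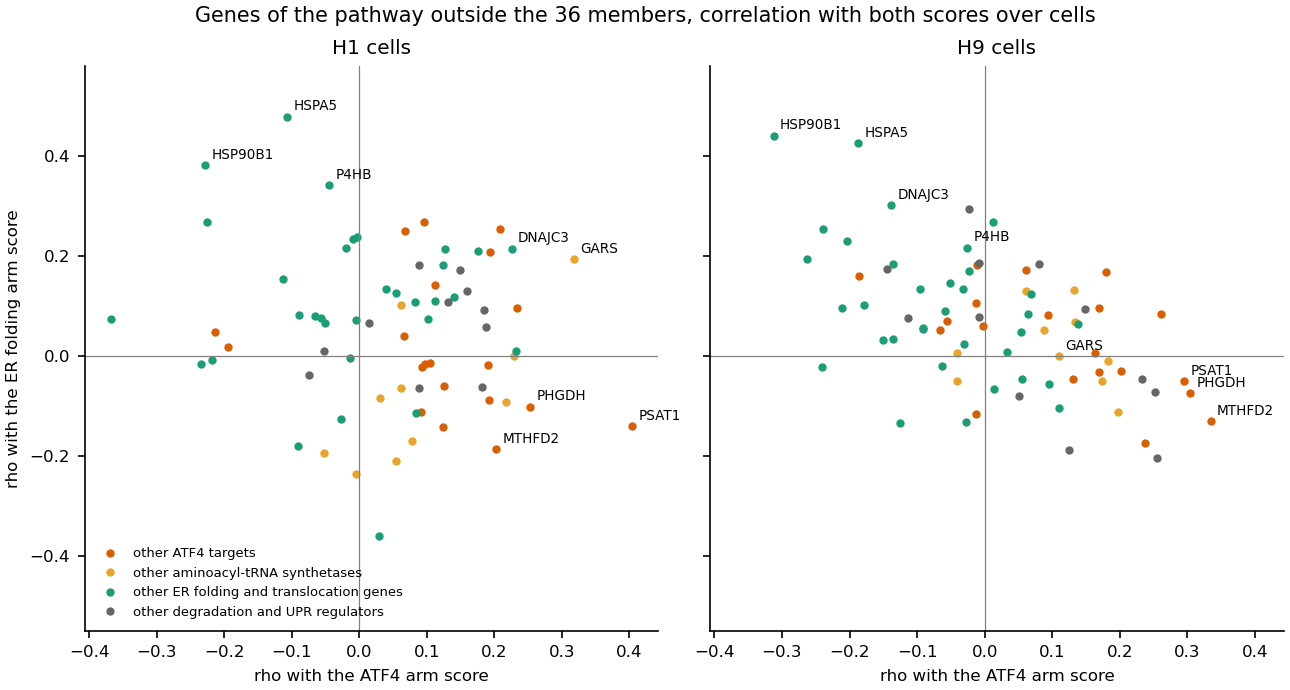
Spearman's rho with the ATF4 arm score (x axis) and with the ER folding arm score (y axis) over H1 cells (left) and H9 cells (right), 1 point per pathway gene outside the 36 members, coloured by list. HSPA5 and HSP90B1 lie at the upper left of both panels and PSAT1, PHGDH and MTHFD2 at the right, below 0 on the y axis.

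The genes most like each score were ranked by the lower rho of the lines among 7930 eligible genes outside the module. For ER folding the first were HSPA5 (0.48 in H1, 0.43 in H9) and HSP90B1 (0.38 and 0.44), ahead of the clathrin light chain gene CLTA (0.33 and 0.38), the fatty acid synthase gene FASN (0.31 and 0.31), WIPF3, MLANA, the dynein heavy chain gene DYNC1H1, the profilin gene PFN1, PPIL6 and CCDC90A, the last at 0.36 and 0.28. For the ATF4 arm they were EEF1A1, a translation elongation factor (0.36 in H1, 0.44 in H9), IDH3G, the actin genes ACTB and ACTG1, ZFP1, PSAT1 (0.40 and 0.30), MOSPD1, PDE4DIP, HADH and WDR44, the last at 0.26 and 0.26. EEF1A1, at 16040 CPM in H1 against 15140 CPM in H9, and ACTB, at 7129 and 7251 CPM, were abundant in both lines. At 96 per lane, 5 of the 10 remained for each arm, and with median-of-ratios factors 6 of 10 remained for the ATF4 arm and 2 of 10, HSPA5 and HSP90B1, for ER folding.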

How the data were processed

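Values deposited by the authors are expected counts, estimated per gene with RSEM 1.2.3 after Bowtie 0.12.8 and CASAVA 1.8.2 on hg19, per the submitters' processing notes. The annotation is not given in the sources used here. All 414 libraries of 51-bp single-end reads were in the tables. Expected counts were scaled to CPM over human genes, with spike-in rows left out of totals, and were rounded only to decide whether a gene was read in a cell. Group levels are sums over cells, and bulk levels are means over libraries. Correlations are Spearman's on CPM, and scores use log2(CPM + 1). All 36 members are named. Genes outside them are the 10 most like each arm by the lower rho of the lines, and up to 4 of each pathway list by size of ratio, with any gene past a stated limit. The members and lists were chosen with earlier results of these data known. Groups of cells are single samples, so no test was run. The procedures were tested on simulated data. Alternatives were other depths, scalings, minimums and pseudocounts, and leaving libraries out. Python 3.11.15, numpy 2.4.6, pandas 2.3.3, scipy 1.17.1, matplotlib 3.10.9, R 4.3.3 and edgeR 4.0.16 (TMM factors) were used.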

Additional observations from a re-analysis of the deposited data

How the results depend on the processing

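No paired analysis was possible because no result comes from a test between replicated groups. Numbers pair the reads of each cell at 24 and 96 per lane, and the 96 per lane values entered as an alternative. Of 695 alternative values, 639 kept their call, 41 moved, 11 passed and 4 missed the 2-fold limit, and none past 2-fold changed sign. In all, 24 values changed sign, 4 of them for TRIB3 between the lines. Settings without the libraries that stood apart, without the GC trend, with mitochondrial genes left out of the score totals, and with rank residuals that include the mitochondrial share or are taken for pairs were chosen after seeing the data.

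Members 2-fold higher in H1 than in H9 numbered 2 with the mean CPM per cell, 3 at a minimum of 1 CPM and 2 without the cells that stood apart. Against bulk, the ATF4 arm's median was -0.88 with TMM factors, -0.94 with median-of-ratios size factors, -0.85 at 1 CPM, -0.85 without each gene's highest cell, -0.84 without the cells that stood apart and 0.14 with the GC trend removed. The ER folding arm's median was -1.72, -1.78, -1.73 (highest cell), -1.78 (cells apart) and -1.32 (GC trend).

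Spearman's correlation between the arms in H1 was -0.12 with median-of-ratios factors, 0.64 with spike-in totals and -0.016 as rank residuals. In H9 it was 0.48 with spike-in totals, -0.012 with degradation genes joined to the ER folding arm and -0.11 as residuals that include the mitochondrial share. In bulk it was 0.27 with median-of-ratios factors. Those factors gave ER folding pair medians of 0.22 in H1 and 0.15 in H9. The ATF4 pair median in bulk was 0.071 for members read in at least 50% of libraries.

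Members 2-fold above the spread of like genes numbered 2 in H1 at 96 per lane and 1 in H9 without the cells that stood apart. With at least 5 counts, 11 members were read in every H1 cell. Of the 10 genes most like each arm, 5 (ATF4 arm) and 5 (ER folding) remained at 96 per lane, 6 and 2 with median-of-ratios factors, and 5 for ER folding without the cells that stood apart. The cause was not tested for any of these. Depth limits genes near 1 CPM, where a cell holds few reads.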
